A study of Homo sapiens with 11 samples.

Results

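Desmosomes are junctions that fasten the intermediate filaments of neighbouring epithelial cells to one another. The desmogleins and desmocollins are cadherins that bind the next cell, plakoglobin (JUP) and the plakophilins are armadillo proteins that bind the cadherin tails, and desmoplakin (DSP) is the plakin that ties this plaque to keratin filaments. PERP is a tetraspan membrane protein of the junction and a known target of the p53 family. In prostate epithelium, as in other simple epithelia, DSG2 and DSC2 are the usual desmosomal cadherins, whereas DSC3 and PKP1 are best known from basal and stratified cells. The genes described here are DSP, DSG2, DSC2, DSC3, JUP, PKP1, PKP2, PKP3, PKP4 and PERP, found by Entrez identifier as 10 of the 28395 genes counted. They were taken up to see whether the low DSP of DU145 cells overexpressing ST6GAL1 was shared by its partners.

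Messenger RNA was sequenced from PC3 and DU145, established human prostate cancer cell lines, with 3 libraries of PC3 control cells, 3 of PC3 cells overexpressing ST6GAL1, 3 of DU145 control cells and 2 of DU145 cells overexpressing ST6GAL1, which the labels number replicates 2 and 3. ST6GAL1 adds α2-6-linked sialic acid to glycoproteins, and it was introduced by a lentivirus that was stably kept by the cells, while the control cells carried a negative control lentivirus (Lenti-ORF), so that every group had been transduced. The labels call the libraries biological replicates, but the sources used here do not say whether any came from a separate transduction, and each group stands for 1 modified line. Values are given as CPM (counts scaled to library size after TMM scaling over all 11 libraries) when a gene is followed across libraries, and as RPKM (the same per 1 kb of exon) when genes are compared with one another.

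Totals ran from 13194485 to 18201359 counts per library, so that 3 counts corresponded to 0.165 to 0.227 CPM. ST6GAL1 was 12.9 ± 1.46 CPM (SD, n = 3) in DU145 control cells and 322 ± 33.9 (n = 2) in overexpressing cells, and 2.71 ± 0.538 and 32.5 ± 0.811 CPM (n = 3 each) in PC3. CTNNA1, the α-catenin gene that PC3 cells are known to lack, stood at 1.25 ± 0.295 CPM in PC3 control cells and at 568 ± 6.32 CPM in DU145 control cells. All 4 epithelial markers had more than 3 counts in every library, whereas the prostate antigen gene KLK3 had no count in any. The summed markers of other cells ran from 0.571 to 14.7 CPM for 4 endothelial genes, from 3.16 to 35.8 CPM for 5 fibroblast genes and from 20.1 to 61.8 CPM for 5 leukocyte genes, with no count of the T cell gene CD3E. The DU145 overexpressing libraries stood apart from each other, since 789 of 13676 genes (5.77%) differed by over 0.58 in log2(CPM + 1), about 1.5-fold, between them against 0.717% to 1.54% of genes between DU145 control libraries and 0.569% to 0.687% between PC3 libraries of the same group.

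The letters just before the start of DSP, DSG2, DSC2 and DSC3 are shown because the calls of the overexpression comparisons fell on these genes. They are from the RefSeq table of 250 bases before each gene's start (GRCh38.p14), which held 8 of the 10 genes and not PKP2 or PKP3. Capitals mark the E2-box, CAGGTG or CACCTG, which repressors of the SNAI and ZEB families are known to bind. It was in 17.5% of all 27305 promoters. DSP (chromosome 6, gene at 7541671 to 7586714, plus strand) held it at 178 and 85 bases before its start. Each site is given with its surroundings at chr6:7541481-7541510 and chr6:7541574-7541603, on the plus strand.
DSP, upstream site: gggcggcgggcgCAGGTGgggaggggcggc
DSP, downstream site: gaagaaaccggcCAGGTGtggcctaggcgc
DSG2 (chromosome 18, 31498177 to 31549008) also held a pair of E2-boxes, at 232 and 116 bases before its start, within chr18:31497927-31498176 on the plus strand. DSC2 (chromosome 18, 31058840 to 31102421) held 1 at 156 bases, within chr18:31102509-31102671 on the minus strand. DSC3 (chromosome 18, 30989365 to 31042742) held none, as shown for chr18:31042816-31042992 on the minus strand. For DSC2 and DSC3 the bases nearest to the start, where annotated exons lie, are left out. An exon of 1 annotated DSP transcript covers all 250 bases of the DSP window, so that both DSP sites shown also lie in exon sequence.
DSG2: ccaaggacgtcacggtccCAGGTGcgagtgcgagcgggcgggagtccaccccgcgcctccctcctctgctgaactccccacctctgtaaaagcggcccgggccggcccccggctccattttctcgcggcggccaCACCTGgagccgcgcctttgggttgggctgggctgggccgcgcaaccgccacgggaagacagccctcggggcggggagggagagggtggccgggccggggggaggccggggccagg
DSC2: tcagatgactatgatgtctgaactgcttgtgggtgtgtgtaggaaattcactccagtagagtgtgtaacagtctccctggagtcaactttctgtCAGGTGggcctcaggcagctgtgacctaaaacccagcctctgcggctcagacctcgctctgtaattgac
DSC3: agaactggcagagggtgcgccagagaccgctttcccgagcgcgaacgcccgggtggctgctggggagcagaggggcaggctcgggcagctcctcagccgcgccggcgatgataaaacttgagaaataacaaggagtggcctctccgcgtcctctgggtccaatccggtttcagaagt
JUP, PKP1, PKP4 and PERP held no E2-box in this window. The palindrome AACCGGTT, bound by grainyhead-like factors, was in 0.106% of all promoters and in none of the 8. The GC-box, GGGCGG or CCGCCC, was in 42.3% of all promoters, and DSP held 7 of them, PERP 5, PKP4 3, DSG2 and JUP 2 each, DSC2 and PKP1 1 each and DSC3 none. The DSP window was 78% G and C with 33 CpG, that of DSG2 75.2% with 26, that of DSC2 59.6% with 12 and that of DSC3 60.4% with 18, while the median of all promoters was 58% with 11. A match of letters shows neither that a factor binds nor that it acts on the gene.

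All 10 desmosomal mRNAs were counted in the control cells of both lines, in a different order of level. In DU145 control cells DSG2 was highest at 58.8 ± 0.881 RPKM (SD, n = 3), followed by PERP at 27.6 ± 1.46, DSP at 26.3 ± 1.89 and JUP at 23.0 ± 1.01. The order of PERP and DSP was within their spread. PKP4 (10.1 ± 0.295 RPKM), PKP3 (8.64 ± 0.413) and DSC2 (4.69 ± 0.251) came next, and DSC3 (2.22 ± 0.282), PKP1 (0.615 ± 0.0851) and PKP2 (0.485 ± 0.0250) were lowest. In PC3 control cells PKP1 stood first at 89.3 ± 0.985 RPKM (n = 3), above PERP at 20.6 ± 0.799, DSC3 at 14.5 ± 0.283, DSG2 at 13.9 ± 0.429 and PKP3 at 12.9 ± 0.331. JUP (8.04 ± 0.210 RPKM), PKP4 (6.87 ± 0.261), DSC2 (4.88 ± 0.0760) and PKP2 (2.68 ± 0.103) followed, and DSP was lowest at 2.27 ± 0.160. Thus DSP was among the leading desmosomal mRNAs of DU145 control cells and the scarcest of the 10 in PC3 control cells.

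Throughout, a gene was called when its p from the edgeR quasi-likelihood test, after Benjamini-Hochberg adjustment, was under 0.05 and its log2 difference was over 0.58 in either direction, about 1.5-fold. Between the control cells, 6 of the 10 genes were called, where 64.6% of all 14246 genes tested were called, so that the share was near that of all genes. By the adjusted p alone 9 passed, 5 higher and 4 lower in DU145, against 88.2% of all genes (44.1% higher and 44.1% lower), and 9 did not overlap, against 88.5%. The lines were counted in separate tables, so that line and table cannot be told apart. PKP1 was 7.18 lower in DU145 than in PC3 on the log2 scale, a 145-fold difference (log2 difference -7.18, SE 0.0743, adjusted p = 3.63e-32). DSC3 and PKP2 were also lower in DU145, by log2 differences of -2.70 and -2.46, whereas DSP (3.54), DSG2 (2.09) and JUP (1.52) were higher. PKP4 (0.56), PERP (0.43) and PKP3 (-0.58) passed the adjusted p alone, and DSC2 differed by -0.05 (95% interval -0.17 to 0.06, adjusted p = 0.378).

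**Figure D1:**
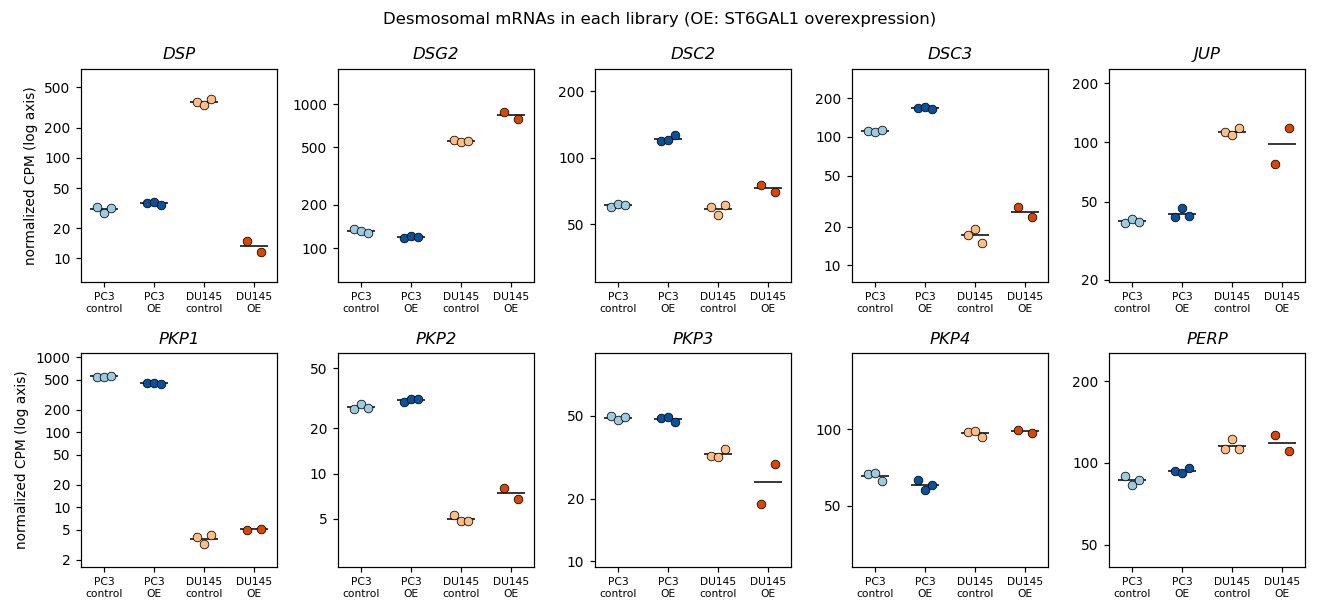
Normalized CPM on a log axis of each of the 10 desmosomal mRNAs in every library of PC3 and DU145 control and ST6GAL1 overexpressing (OE) cells. Points are libraries and lines are group means. DSP lies at 334 to 385 CPM in DU145 control libraries and at 11.7 and 14.8 CPM in DU145 overexpressing libraries, and JUP and PKP3 are split between the DU145 overexpressing libraries.

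With ST6GAL1 overexpression in DU145, DSP fell while no partner was called lower. DSG2 and DSC3, desmosomal cadherins, rose by about 1.5-fold, and the other 7 genes were not called. Altogether 3 of the 10 genes were called, 1 lower and 2 higher, where 8.94% of all 13676 genes tested were called (4.33% higher and 4.61% lower). By the adjusted p alone 5 of 10 passed, 4 of them higher, against 20.1% of all genes (10.7% higher and 9.42% lower). The groups did not overlap for 7 of the 10, against 48.4% of all genes. The median log2 fold change of the 10 genes was 0.18, and that of all genes tested was -0.0016.

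DSP, which anchors the plaque to keratin, was at 357, 334 and 385 CPM in the DU145 control libraries and at 14.8 and 11.7 CPM in overexpressing replicates 2 and 3. These values rest on 5154 to 5403 counts in the control libraries and on 229 and 210 counts in the overexpressing ones. The DSP message was therefore low and not absent in both overexpressing libraries, and its groups lay far apart. The log2 fold change was -4.76 (SE 0.120, 95% interval -5.02 to -4.50, edgeR adjusted p = 4.88e-11), that is 27.1-fold lower, and it stayed between -4.94 and -4.59 when each library was left out in turn. In these bulk libraries fewer cells with the message and less message per cell cannot be told apart. The DSP level left in DU145 overexpressing cells, 13.2 ± 2.15 CPM (n = 2), was below the 30.9 ± 2.18 CPM (n = 3) of PC3 control cells, a difference that was not tested.

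DSG2, the widespread desmoglein, was at 567, 550 and 557 CPM in the DU145 control libraries and at 880 and 793 CPM in the overexpressing ones. Both overexpressing libraries lay above all controls, and the log2 fold change was 0.59 (SE 0.0782, edgeR adjusted p = 0.000115), just past the fold limit. DSC3, the desmocollin of basal cells, was at 17.2, 19.2 and 14.9 CPM in control libraries and at 28.5 and 24.0 CPM in overexpressing ones. Its groups did not overlap either, with a log2 fold change of 0.62 (SE 0.129, edgeR adjusted p = 0.00375). Neither call held in every subset of libraries. Without overexpressing replicate 2 the log2 fold change was 0.50 for DSG2 and 0.48 for DSC3, and without control replicate 3 it was 0.58 for DSG2 and 0.52 for DSC3, both under the limit. Without control replicate 2 DSG2 alone was lost, at 0.56.

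DSC2, the other desmocollin, was at 59.9, 55.05 and 60.9 CPM in control and 75.5 and 70.4 CPM in overexpressing DU145 libraries. It passed the adjusted p but not the fold limit (log2 fold change 0.32, SE 0.0848, edgeR adjusted p = 0.0158). All 3 cadherins measured thus had both overexpressing libraries above all controls, opposite to DSP. Of all genes tested in DU145, 48.4% had groups that did not overlap, counting higher and lower together. The 3 cadherin genes also lie together on chromosome 18, among neighbours that are described below. The summed level of the 3 cadherins was 65.7 ± 0.961 RPKM in control cells and 97.4 ± 7.13 RPKM in overexpressing cells (SD, n = 3 and 2), of which DSG2 made up 89.5% and 90.5%.

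JUP, which binds both the cadherins and desmoplakin, was at 113, 109 and 119 CPM in control and at 77.8 and 119 CPM in overexpressing replicates 2 and 3. Replicate 2 was below every control library and replicate 3 was among them. The log2 fold change of -0.20 (95% interval -0.64 to 0.24, edgeR adjusted p = 0.500) therefore allowed a change in either direction. PKP3, a plakophilin common to most epithelia, had the same division, with 31.97, 31.8 and 34.6 CPM in control libraries and 18.9 and 29.3 CPM in overexpressing replicates 2 and 3. Against the mean of the controls, PKP3 had a log2 ratio of -0.80 in replicate 2 and -0.16 in replicate 3, while JUP had -0.54 and 0.07. PKP3 did not pass the test (log2 fold change -0.43, edgeR adjusted p = 0.109), but it was called lower at -0.78 when overexpressing replicate 3 was left out. For PKP3 the call thus turned on which of the DU145 overexpressing libraries was read. JUP changed direction but stayed within the fold limit, from -0.53 to 0.063, as each library was left out.

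PKP2, a plakophilin of simple epithelia and heart, was at 5.28, 4.82 and 4.86 CPM in control and 8.06 and 6.81 CPM in overexpressing DU145 libraries. It passed the adjusted p and missed the fold limit narrowly (log2 fold change 0.5764, SE 0.161, edgeR adjusted p = 0.0215). PKP1, at 3.96, 3.23 and 4.26 CPM in control and 4.96 and 5.19 CPM in overexpressing libraries, was scarce in DU145 and did not pass (0.42, edgeR adjusted p = 0.127). PKP4, which is found at adherens junctions as well, kept to a narrow range of 93.2 to 99.1 CPM over all 5 DU145 libraries (log2 fold change 0.03, 95% interval -0.13 to 0.19, edgeR adjusted p = 0.815). PERP ran from 110.5 to 126 CPM in the same libraries (0.04, 95% interval -0.14 to 0.22, edgeR adjusted p = 0.802). For PKP4 and PERP these intervals lay within the fold limit in both directions.

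**Figure D2:**
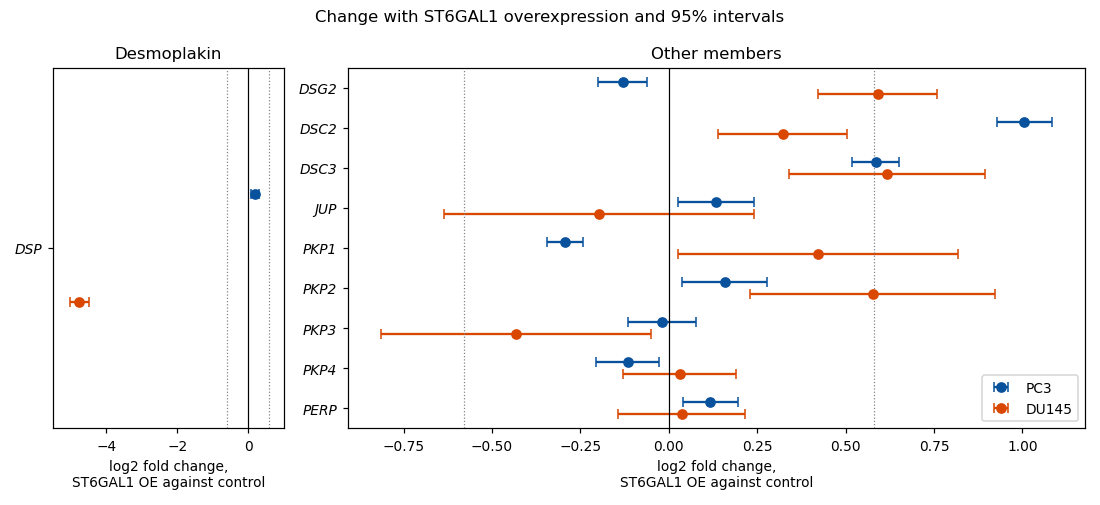
Log2 fold change of the 10 desmosomal genes with ST6GAL1 overexpression in DU145 and in PC3, with 95% confidence intervals from the edgeR fit. Dotted lines mark the fold limit of 0.58 in either direction, and DSP in DU145, at -4.76, is the single value below the lower one.

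In PC3, DSP was not lower with ST6GAL1 overexpression. DSC2 and DSC3 rose, DSC2 by 2.01-fold, and PKP1 and DSG2 passed the adjusted p in the lower direction with small changes. Altogether 2 of the 10 genes were called, both higher, where 5.38% of all 13544 genes tested were called (3.61% higher and 1.76% lower). By the adjusted p alone 9 of 10 passed, 6 higher and 3 lower, against 37.3% of all genes (18.8% higher and 18.5% lower). The biological coefficient of variation between libraries was 0.0226 in PC3 and 0.0817 in DU145. The groups did not overlap for 8 of the 10, against 46.1% of all genes. The median log2 fold change of the 10 genes was 0.13.

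DSP was at 32.5, 28.4 and 31.7 CPM in PC3 control and 35.8, 36.2 and 34.3 CPM in overexpressing libraries. Every overexpressing library was above every control library, with a log2 fold change of 0.20 (SE 0.0583, edgeR adjusted p = 0.00598), under the fold limit. DSC2 was at 59.9, 61.7 and 61.3 CPM in control and 119, 121 and 127 CPM in overexpressing libraries. This was the largest change of a desmosomal gene in PC3 (log2 fold change 1.01, SE 0.0385, edgeR adjusted p = 4.41e-24), and it ran from 0.98 to 1.02 as libraries were left out. DSC3 was at 112, 110 and 114 CPM in control and 167, 170 and 166 CPM in overexpressing libraries. Its log2 fold change lay on the fold limit (0.59, SE 0.0327, edgeR adjusted p = 1.73e-18) and ran from 0.57 to 0.60, the call being lost without control replicate 2 or overexpressing replicate 2.

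DSG2 was at 135, 132 and 127 CPM in PC3 control and 118, 123 and 120 CPM in overexpressing libraries (log2 fold change -0.13, edgeR adjusted p = 0.00217). PKP1, the main plakophilin of these cells, was at 553, 549 and 561 CPM in control and 457, 455 and 445 CPM in overexpressing libraries (-0.29, SE 0.0247, edgeR adjusted p = 6.78e-13). Both passed the adjusted p with the overexpressing libraries lower, and neither reached the fold limit. JUP (0.13), PKP2 (0.16) and PERP (0.12) passed it in the higher direction and PKP4 (-0.12) in the lower, all with changes of less than 1.2-fold. PKP3 was at 47.6 to 49.9 CPM in control and 46.8 to 49.4 CPM in overexpressing libraries (-0.02, 95% interval -0.12 to 0.08, edgeR adjusted p = 0.782).

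For 4 of the 10 genes the change with ST6GAL1 overexpression was unequal in the 2 lines, 2 with the higher and 2 with the lower change in DU145. The overexpressing cells held 322 CPM of ST6GAL1 in DU145 and 32.5 CPM in PC3, so that line and ST6GAL1 level cannot be told apart. An edgeR fit to all 11 libraries gave the test, and 19.7% of 14952 genes passed it at an adjusted p of 0.05 (10.4% with the higher and 9.36% with the lower change in DU145). The difference of the log2 fold changes, DU145 less PC3, was -4.97 for DSP (SE 0.121, edgeR adjusted p = 2.83e-15). DSG2 (0.72, 95% interval 0.57 to 0.87, adjusted p = 5.63e-07) and PKP1 (0.71, 0.44 to 0.99, adjusted p = 0.000561) had the higher change in DU145. Both had opposite signs in the 2 lines, although the PKP1 change within DU145 did not pass (0.42, edgeR adjusted p = 0.127). DSC2 had the higher change in PC3 (-0.69, -0.86 to -0.52, adjusted p = 5.76e-06). For DSC3 the difference was 0.02 (95% interval -0.21 to 0.25, edgeR adjusted p = 0.946), while it was called higher in each line. PKP2 (0.41, adjusted p = 0.0511), PKP3 (-0.41, adjusted p = 0.0987), JUP (-0.33, adjusted p = 0.290), PKP4 (0.14, adjusted p = 0.243) and PERP (-0.09, adjusted p = 0.524) were not called by edgeR.

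The make-up of the desmosomal message pool followed from these values. The 10 genes summed to 162.5 ± 2.06 RPKM in DU145 control and 164.7 ± 2.35 RPKM in DU145 overexpressing cells, and to 175.9 ± 1.55 and 172.8 ± 1.24 RPKM in PC3. Within DU145 the share of DSP went from 16.2% ± 0.955 to 0.590% ± 0.0875 and that of DSG2 from 36.2% ± 0.562 to 53.5% ± 3.15 (SD, n = 3 and 2). The sum therefore stood at about the same level although DSP was nearly gone from it. Within PC3 the share of PKP1 went from 50.8% ± 0.428 to 42.1% ± 0.422 and that of DSC3 from 8.26% ± 0.118 to 12.6% ± 0.103 (n = 3 each). Among the 3 cadherins of PC3, DSG2 went from 41.7% to 28.6%, DSC2 from 14.7% to 22.1% and DSC3 from 43.7% to 49.3%, as their sum went from 33.3 ± 0.232 to 44.2 ± 0.608 RPKM. The plakophilins of PC3 summed to 111.8 ± 0.912 RPKM in control and 94.9 ± 1.38 RPKM in overexpressing cells, with PKP1 at 79.9% and 76.7% of them. Those of DU145, of which PKP4 made up 50.9% and PKP3 43.5% in control cells, summed to 19.8 ± 0.179 and 18.2 ± 1.73 RPKM.

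**Figure D3:**
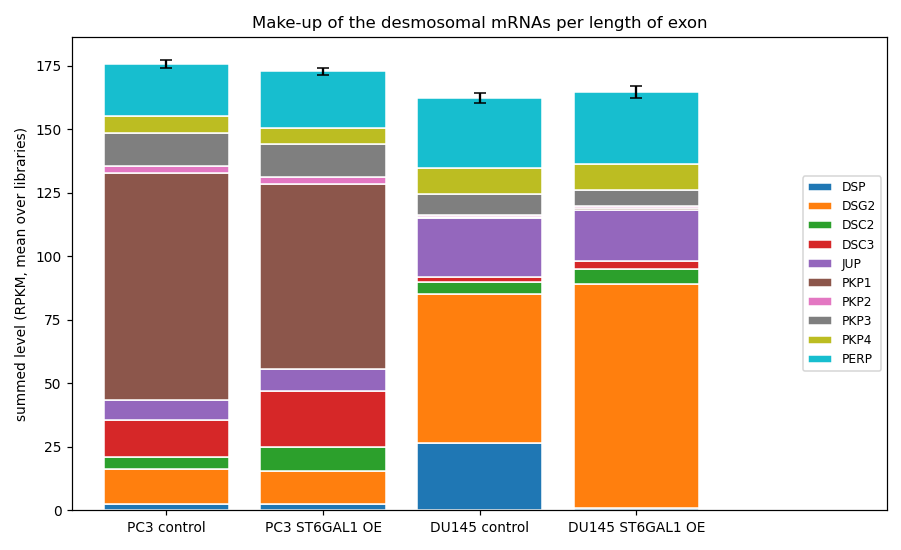
Stacked mean RPKM of the 10 desmosomal genes in the 4 groups, on an axis from 0, with error bars for the SD of the sum over libraries. The total is similar in control and overexpressing (OE) cells of each line, at 162.5 and 164.7 RPKM in DU145, while the DSP segment shrinks to 0.590% of it.

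Genes beside DSP on chromosome 6 did not share its fall. Of the 8 tested genes that start within 1 Mb of DSP none was called in DU145, by edgeR, limma-voom or DESeq2, while 2 had an unadjusted edgeR p under 0.05. Their median log2 fold change was -0.0030, from -0.84 to 0.48. The nearest tested genes were RIOK1, which starts 152 kb before DSP (log2 fold change -0.26, edgeR adjusted p = 0.0950), and SNRNP48, which starts 48.5 kb after it (0.0049, edgeR adjusted p = 0.974). In PC3, RIOK1 had -0.21 (adjusted p = 0.00837) and SNRNP48 -0.10 (adjusted p = 0.277) in the edgeR fit. Within 10 Mb, a window chosen after the values were seen, 73 genes around DSP had a median of -0.01 in DU145, with 3 called higher and 5 lower.

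DSG2, DSC2 and DSC3 lie together on chromosome 18, and there the neighbours moved with the members in DU145. All 5 tested genes that start within 1 Mb of DSG2, not counting DSC2 and DSC3, had a log2 fold change above 0, with a median of 0.33 and 1 called. Within 10 Mb, the window chosen after the values were seen, 43 of 45 genes did, with a median of 0.41, 9 called higher and 0 lower by edgeR, limma-voom and DESeq2 alike and 37 at an unadjusted edgeR p under 0.05, against a median of -0.0016 over all genes tested. In PC3, 20 of 46 genes in the same window were above 0, with a median of -0.02, and DSC2 and DSC3 rose there all the same. Within 1 Mb of PKP3, 7 of 33 tested genes were above 0 in DU145 (median -0.18), and within 1 Mb of JUP 13 of 38 (median -0.10). The 1 Mb medians around PKP1, PKP2, PKP4 and PERP were 0.02, 0.05, 0.10 and 0.05 in DU145. What part any of these regions had in the DU145 values was not tested. DSG2 overlaps the antisense gene DSG2-AS1 (7 counts in all libraries together) and DSC2 overlaps DSCAS (26 counts), and whether the counting used strand is not given in the sources used here.

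**Figure D4:**
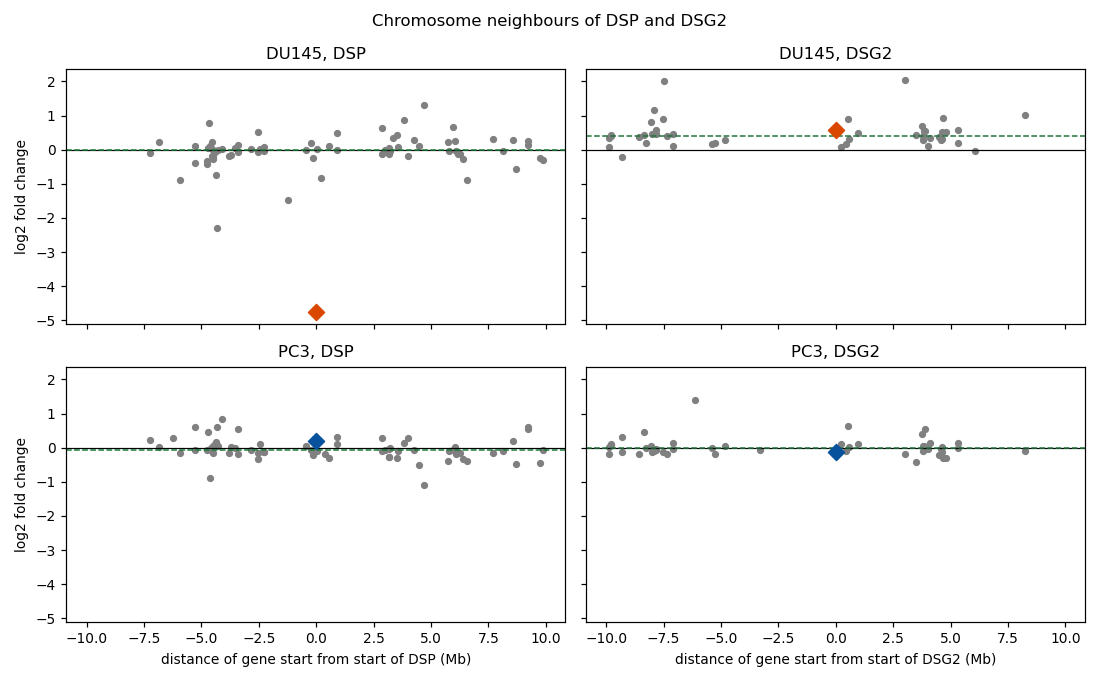
Log2 fold change with ST6GAL1 overexpression in DU145 and PC3 of genes within 10 Mb of DSP and of DSG2, by distance from the start of that gene in Mb. Diamonds mark the desmosomal genes and dashed lines the median of the neighbours, which is -0.01 around DSP and 0.41 around DSG2 in DU145.

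Other desmosomal and cornified envelope genes were sparse. DSG1, DSG3, DSG4 and DSC1 had at most 4 counts in any library and were not tested, so that DSG2, DSC2 and DSC3 were the desmosomal cadherins detected at this depth. Of 4 genes tested, 2 were called lower in DU145, where 4.61% of all genes were called lower. These were KAZN (7.56 ± 0.961 to 3.95 ± 0.0217 CPM, log2 fold change -0.93), which encodes the periplakin-binding protein kazrin, and TGM1 (1.55 ± 0.0827 to 0.676 ± 0.227 CPM, -1.17), the transglutaminase that cross-links the cornified envelope. The plakins closest to DSP by family, PPL and EVPL, had log2 fold changes of -0.09 and -0.44 in DU145, with edgeR adjusted p = 0.698 and adjusted p = 0.306. EVPL was split between the overexpressing libraries like JUP and PKP3, at 26.8 CPM in replicate 2 and 44.1 CPM in replicate 3 against 41.2 to 56.1 CPM in control libraries, and its log2 fold change ran from -0.84 to -0.14 as libraries were left out. In PC3 none of the 4 was called by edgeR, limma-voom or DESeq2. PPL (0.51) and EVPL (0.16) passed the adjusted p alone, against 37.3% of all genes, and were the 2 with an unadjusted p under 0.05.

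Keratins, the filaments that DSP binds, were called for 2 of 7 tested genes in DU145 and 1 of 7 in PC3. The shares over all genes tested were 8.94% in DU145 and 5.38% in PC3. By the adjusted p alone 5 of 7 passed in DU145, 1 higher and 4 lower, against 20.1% of all genes (10.7% higher and 9.42% lower). KRT8 (log2 fold change -0.27) and KRT18 (-0.25), the pair of simple epithelia, passed the adjusted p in DU145 without reaching the fold limit, from 563 ± 17.7 to 466 ± 44.5 CPM and from 349 ± 5.48 to 292 ± 15.6 CPM. KRT19 did so as well (252 ± 3.89 to 191 ± 39.7 CPM, -0.39). KRT15, a basal keratin, was called lower in DU145 (2.64 ± 0.0781 to 1.33 ± 0.330 CPM, -0.97) and higher in PC3 (14.1 ± 0.636 to 28.2 ± 0.872 CPM, 1.00). KRT81, a hair keratin, was called higher in DU145, from 1.90 ± 0.161 to 5.06 ± 2.23 CPM.

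Of the classical cadherin genes of adherens junctions, CDH1 and CDH3 were called in PC3 and none was called in DU145. Of all genes tested, 5.38% were called in PC3 and 8.94% in DU145. In PC3, 2 of 11 tested genes were called, both higher, namely CDH3 (6.02 ± 0.557 to 22.5 ± 0.491 CPM, log2 fold change 1.90), which encodes P-cadherin, and CDH1 (9.16 ± 0.431 to 23.7 ± 0.662 CPM, 1.37), which encodes E-cadherin. CDH1 and CDH3 were higher in the same PC3 libraries as DSC2 and DSC3. CDH2, also a classical cadherin gene, was not called in PC3 (324 ± 12.9 to 311 ± 4.53 CPM, -0.06, edgeR adjusted p = 0.0954). It was at 37.8 RPKM in PC3 control cells, where CDH1 was at 1.51 and CDH3 at 0.941 RPKM. In DU145 none of 10 was called by edgeR, limma-voom or DESeq2. By edgeR 3 passed the adjusted p alone, against 20.1% of all genes, and 5 an unadjusted p of 0.05. CDH1 (0.26) and CDH3 (0.06) had smaller changes in DU145. The difference between the lines was -1.12 for CDH1 and -1.84 for CDH3.

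Tight junction genes were called for 2 of 13 in DU145 and 2 of 12 in PC3, against 8.94% and 5.38% of all genes. The claudin CLDN4 was higher in DU145 (8.78 ± 0.316 to 25.9 ± 6.88 CPM, log2 fold change 1.57) and the plaque protein cingulin (CGN) lower (61.3 ± 1.21 to 35.1 ± 1.67 CPM, -0.80). Those called in PC3 were CLDN7 (1.25 ± 0.116 to 4.43 ± 0.896 CPM, 1.82) and TJP3 (0.660 ± 0.137 to 1.93 ± 0.335 CPM, 1.54), both higher. Of 9 hemidesmosome genes, which hold the cell to its base in place of its neighbour, none was called in DU145 by edgeR, limma-voom or DESeq2. By edgeR, 4 of them passed the adjusted p alone in DU145, all higher, against 20.1% of all genes (10.7% higher). An unadjusted edgeR p of 0.05 was passed by 5. LAMA3 missed the fold limit narrowly there (0.5786, edgeR adjusted p = 6.64e-05). LAMB3 was called lower in PC3 (218 ± 5.79 to 137 ± 5.19 CPM, -0.67). Of 9 genes for desmosome turnover and signalling, PRKCA, the protein kinase C known to loosen desmosomes, was called higher in DU145 (140 ± 9.93 to 236 ± 0.727 CPM, 0.76). In PC3 none of these 9 was called by edgeR, limma-voom or DESeq2. In edgeR 6 passed the adjusted p alone, against 37.3% of all genes, and also an unadjusted p of 0.05. PRKCA was among them, with a log2 fold change of -0.33.

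Transcription and splicing regulators of epithelial and mesenchymal state were called for 5 of 13 tested genes in DU145, against 8.94% of all genes. SNAI2, a repressor that binds the E2-box shown above for DSP, DSG2 and DSC2, rose from 0.680 ± 0.176 to 2.75 ± 0.0261 CPM (log2 fold change 2.01, SE 0.298, edgeR adjusted p = 0.000282). It rests on 8 to 13 counts per control library and on 43 and 49 counts in the overexpressing ones. Of the other listed SNAI and ZEB genes, SNAI1 (-0.12, edgeR adjusted p = 0.661), ZEB1 (0.03, adjusted p = 0.870) and ZEB2 (-0.53, adjusted p = 0.244) were not called. Whether any of these repressors had a part in the level of DSP, DSG2 or DSC2 was not tested. KLF4 was called higher (5.58 ± 0.875 to 8.57 ± 0.271 CPM, 0.63), and the splicing regulators ESRP1 (5.10 ± 0.765 to 2.22 ± 0.776 CPM, -1.21) and ESRP2 (27.8 ± 0.963 to 18.5 ± 2.18 CPM, -0.58) were called lower. OVOL2, the remaining call and lower as well, rests on 2 and 6 counts in the overexpressing libraries.

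In PC3, where 5.38% of all genes were called, 3 of 14 regulators were called, all higher. They were the ETS factor EHF (9.25 ± 0.749 to 23.2 ± 0.517 CPM, log2 fold change 1.33), ESRP1 (2.13 ± 0.101 to 8.97 ± 0.252 CPM, 2.07) and GRHL2 (0.631 ± 0.428 to 5.16 ± 0.371 CPM, 3.06), a grainyhead-like factor of epithelial genes. ESRP1 was therefore called in opposite directions in the 2 lines, and the difference of -3.30 passed the interaction test. Under DESeq2 the DU145 calls of KLF4 (adjusted p = 0.0724), KRT15 (adjusted p = 0.114) and TGM1 (adjusted p = 0.166) were lost, and OVOL2 was not called by it either. Leaving out 1 library also ended DU145 calls, namely ESRP2 without control replicate 2 (-0.57) or overexpressing replicate 2 (-0.48), KLF4 without control replicate 1 (0.57) or 2 (0.53), and KRT81 without control replicate 2 (1.47, edgeR adjusted p = 0.0590). KRT15 was lost without control replicate 1 or 2 or overexpressing replicate 2 (edgeR adjusted p = 0.0582 to 0.0887), and TGM1 without any 1 control library or overexpressing replicate 2 (-1.21 to -0.90). OVOL2 was lost without any 1 library other than overexpressing replicate 3.

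**Figure D5:**
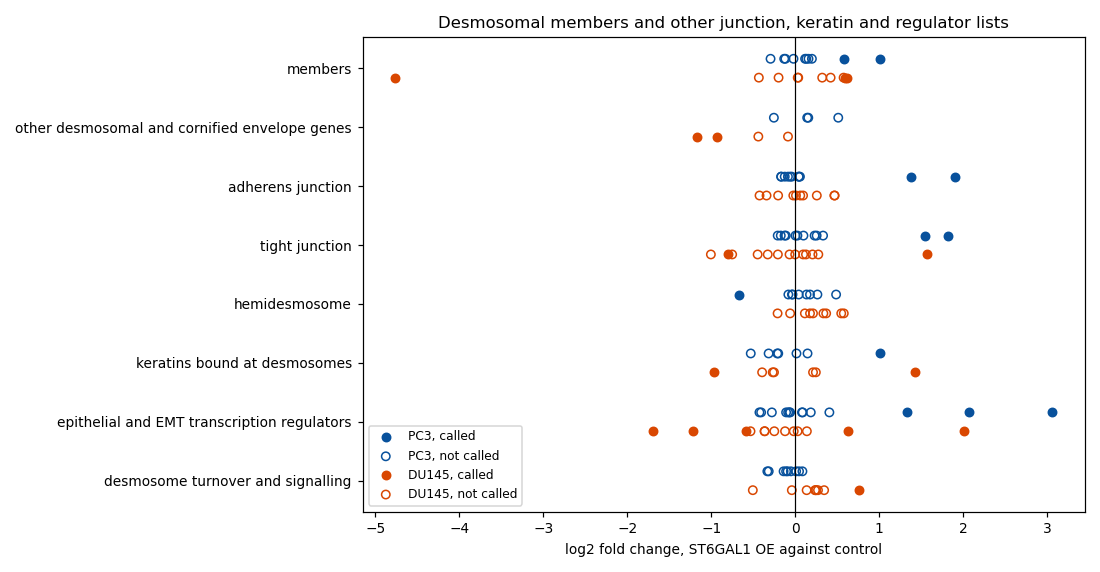
Log2 fold change of each tested gene of the desmosomal set and of the other junction, keratin, regulator and turnover lists with ST6GAL1 overexpression in DU145 and PC3. Filled points were called and open points were not, and among the 10 desmosomal genes DSP in DU145 is the single filled point below 0.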

How the data were processed

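The authors trimmed the 75 bp single reads (Cutadapt), aligned them to hg38 (HISAT2) and ran featureCounts, and they deposited the unnormalized counts by Entrez gene identifier in 1 table per line. Libraries were made with a TruSeq Stranded mRNA kit, and the annotation and strand setting of the counting are not given in the sources used here. From the counts, edgeR 4.0.16 (R 4.3.3) was run over all genes with filterByExpr, TMM factors and the robust quasi-likelihood test, separately in each line, between the control cells, and over all 11 libraries for the interaction. RPKM used exon-union lengths from GENCODE v44 by symbol in place of RefSeq, whose table held no exons. Coordinates and promoters are RefSeq GRCh38.p14, in which 97.7% of genes matched. Limma-voom (limma 3.58.1) and DESeq2 1.42.0 were among the alternatives. The scripts were tested on simulated counts.

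The members, lists and tests were chosen with earlier results of these data known. Named were the 10 members, ST6GAL1, CTNNA1, at most 4 called genes per list and comparison by adjusted p, the nearest tested genes on either side of DSP and the 5 genes most like DSP in pattern, of which 1 is not reported here. OVOL2, PPL, EVPL, KRT8, KRT18, SNAI1, ZEB1 and ZEB2 were named after their values were seen. So were values of rule-named genes in the other line or in another comparison. Gene spread was judged between libraries whose separate cultures are stated only as biological repeats. A DU145 overexpression replicate 1 was not analysed here.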

Additional observations from a re-analysis of the deposited data

Results flagged for a closer look

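The effect of ST6GAL1 overexpression differed between the lines, by the edgeR interaction test over all 11 libraries, for the genes given here as the difference of their log2 fold changes, DU145 less PC3. Of the desmosomal genes these were DSP (-4.97), DSG2 (0.72), DSC2 (-0.69) and PKP1 (0.71). The change in ST6GAL1 itself was larger in DU145, by 1.06. Of the junction genes, the difference was -1.12 for CDH1, -1.84 for CDH3, -0.83 for CGN, 1.32 for CLDN4, -2.15 for CLDN7, -1.98 for TJP3 and 0.78 for LAMB3. Of the keratin and cornified envelope genes, it was -1.97 for KRT15, 1.97 for KRT81 and -1.32 for TGM1. Of the regulators and signalling genes, it was -3.30 for ESRP1, -0.53 for ESRP2, 0.55 for KLF4, 2.41 for SNAI2 and 1.09 for PRKCA. GRHL2 had a fitted difference of -6.33, which depends on the prior count because no DU145 overexpressing library had a GRHL2 count. Line, counting table and the ST6GAL1 level reached cannot be told apart in these differences.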

How the results depend on the processing

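DSP was called lower in DU145 under every alternative run. The 3 desmosomal calls in DU145 became 5 without a fold limit and 1 to 5 as each library was left out, with 1 call (DSP) without control replicate 3 or overexpressing replicate 2 and 5 without overexpressing replicate 3, which added PKP2 and PKP3. The 2 calls in PC3 became 9 without a fold limit, 1 without a filter on low counts (DSC3 at 0.5795) and 1 to 2 as libraries were left out. The 4 interaction calls became 4 to 7, with 7 without DU145 overexpressing replicate 3, which added JUP, PKP2 and PKP3. The 6 calls between controls stayed between 6 and 8.

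Directions changed only on leaving out 1 library, for values that were not called: JUP in DU145 ranged from -0.53 to 0.063, PKP4 from -0.0061 to 0.052 and PERP from -0.076 to 0.14, PKP3 in PC3 from -0.040 to 0.0021, and the DSC3 interaction from -0.11 to 0.13. Deviations of same-numbered libraries from their group means had correlations of -0.016 to 0.045 in PC3 and of 0.062 and 0.237 in the 2 DU145 pairs. The 2 DU145 overexpressing libraries deviate from their mean as mirror images. Each DU145 control therefore has equal and opposite correlations with them, and these values decide little about pairing. The numbers were not taken to pair libraries in either line. With the replicate block, 4 desmosomal genes were called in DU145 (PKP2 added, 0.62) and 6 in the interaction (PKP2 and PKP3 added).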

Other observations

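The genes most like DSP were ranked among 14952 by the root mean square difference of log2 CPM, centred on each gene's mean over all 11 libraries. Of the 5 nearest, these 4, KIF1A (0.654), PCDHGB7 (0.709), C14orf132 (0.767) and PPP1R1A (0.777), did not exceed a mean of 2.05 CPM in any group, which does not describe the fifth. No desmosomal gene was near this list, JUP being the nearest at a difference of 1.51 and PKP1 the farthest at 4.51.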
